A study of Saccharomyces cerevisiae with 6 samples.

Results

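The genes described here are the aminoacyl-tRNA synthetases of budding yeast and ARC1, the cofactor of a synthetase complex, measured in yeast cells with and without glycolaldehyde. They are 33 of the 6225 genes on the array. Of these, 19 act in the cytosol (18 enzyme subunits and ARC1) and 14 are mitochondrial enzymes encoded in the nucleus. Members were taken from a list of gene names, each was matched to its open reading frame, and each had a single probe. The glycolaldehyde group was 3 samples of Saccharomyces cerevisiae strain BY4743 given 10 mM glycolaldehyde, a small reactive hydroxyaldehyde, for 4 h. The untreated group was 3 samples of the same strain grown without it. Cells of both groups stood unshaken at 30 °C, in a synthetic medium that contained 2% glucose, and RNA came from 3 independent starter cultures. The labels also name anaerobic growth, and their protocol leaves unclear whether overnight cultures already held the aldehyde, so oxygen supply and the full length of exposure are not known. The labels call the strain haploid, whereas BY4743 is known as a diploid. Probes for URA3, LEU2 and HIS3, which BY4743 lacks, were well above background on 0 of 6 arrays, while the probes for the a1 and alpha1 genes of the mating type loci were so on all 6.

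Aminoacyl-tRNA synthetases attach each amino acid to its tRNA, and so set the supply of charged tRNA for translation. Yeast has separate nuclear genes for most cytosolic and mitochondrial enzymes. A few genes serve both compartments, because a longer protein with a targeting sequence and a shorter one are made from the same gene. When charging fails, uncharged tRNA activates the kinase Gcn2, which leads to more of the transcription factor Gcn4; Gcn4 raises genes of amino acid synthesis and of several synthetases.

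One single-colour array was run per sample, and between 5929 and 6070 of 6256 probes per array were well above background, with 0 saturated spots. All 33 members were well above background on all 6 arrays. The values used are the authors' deposited value table, as titles and treatment entries name its samples; the free-text descriptions say the opposite for every sample. The scanner files attached to the samples put 2 of the 6 arrays in the other group than the value table does. The grouping of the value table was kept with the results of both groupings known, and values under the other are given near the end. Arrays were scanned on 2 days. Replicates 1 and 2 of both groups belonged to day 1 and replicate 3 of both to day 2. The value table and the scanner files agree on the group of 4 arrays, untreated replicates 1 and 2 and glycolaldehyde replicates 2 and 3. Among these only glycolaldehyde replicate 3 is of day 2, so treatment is not balanced over scan days there. The replicates were closest within day 1 (SD of log2 differences over the tested genes 0.0979 between untreated replicates 1 and 2, and 0.105 between glycolaldehyde replicates 1 and 2) and further apart across days (0.181 to 0.21).

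Levels are given below as scaled intensity, the value table divided by each array's 75th percentile and brought back to the mean 75th percentile of the arrays. A level can be compared between arrays for 1 probe but not between probes. Changes are log2 ratios of glycolaldehyde over untreated with the SE of limma (n = 3 arrays per group), and a gene is said to have risen or fallen where limma's Benjamini-Hochberg adjusted p over the 5944 genes tested was under 0.05.

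The messages of most cytosolic synthetases were lower in glycolaldehyde-treated cells, while those of the mitochondrial enzymes mostly were not. Of the 19 cytosolic members 13 fell and 0 rose, where 23.5% of all tested genes fell and 29.6% rose. Of the 14 mitochondrial members 4 rose, 2 fell and 8 did not pass; 2 rose when any 1 of the day 1 arrays was left out. The changes were modest. Among cytosolic members they ran between -0.60 for ALA1 and 0.13 for GRS2 with a median of -0.34, among mitochondrial members between -0.37 for ISM1 and 0.36 for MSE1 with a median of 0.10, and over all tested genes the median was 0.03. A change of at least 0.5 on the log2 scale that also passed was found in 4 cytosolic members (ALA1, ILS1, DPS1 and VAS1), all falls, and in 0 mitochondrial ones, against 8.11% of all tested genes for falls and 8.38% for rises. In 16 of the 19 cytosolic members every glycolaldehyde array lay below every untreated array, and in 2 every one lay above; over all tested genes these shares were 27.1% and 33.8%, or 60.9% in either direction. In the mitochondrial class the counts were 2 below and 8 above. The calls in both classes are read against a background in which 53.1% of all tested genes changed.

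**Figure D1:**
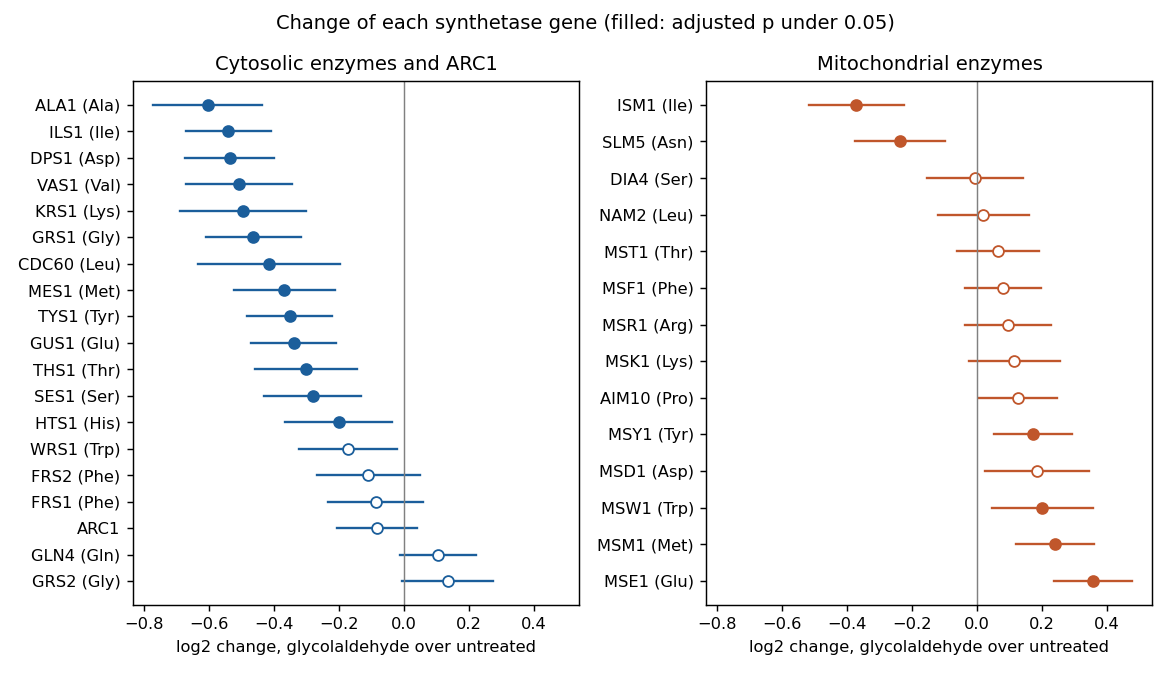
Log2 change of each gene, glycolaldehyde over untreated (points, with 95% intervals of limma as lines; n = 3 arrays per group; filled points have an adjusted p under 0.05), for cytosolic members on the left and mitochondrial ones on the right. In the left panel 17 of 19 points lie below 0, and in the right panel 11 of 14 lie above 0.

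ALA1, alanyl-tRNA synthetase, had scaled intensities of 14033, 14802 and 16445 on the glycolaldehyde arrays, against 23554, 23161 and 21930 on the untreated ones. The groups were apart by more than the spread within either, and ALA1 fell by 0.60 ± 0.07 (adjusted p = 0.000378), or by 34.2%. Within scan days 1 and 2 its log2 change was -0.70 and -0.42. ILS1, the cytosolic isoleucyl-tRNA synthetase, had 64966, 67044 and 71200 with glycolaldehyde, against 97045, 98673 and 99462 without. The untreated arrays lay close together and all glycolaldehyde arrays were clearly below them, so that ILS1 fell by 0.54 ± 0.06 (adjusted p = 0.000202). DPS1, which charges tRNA with aspartate, had 33847, 35379 and 35352 with glycolaldehyde, against 48078, 53256 and 50330 without. Here the drop was nearly the same on both scan days (-0.55 and -0.51), and DPS1 fell by 0.54 ± 0.06 (adjusted p = 0.000262).

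VAS1, valyl-tRNA synthetase, had 30351, 30438 and 34820 with glycolaldehyde, against 43598, 45758 and 46230 without. Glycolaldehyde replicate 3 was the highest of its group but still below all untreated arrays, and VAS1 fell by 0.51 ± 0.07 (adjusted p = 0.000764). KRS1, lysyl-tRNA synthetase, had 143740, 143249 and 127924 with glycolaldehyde, against 199789, 210143 and 175555 without. In both groups replicate 3 was the lowest array, and the change of KRS1 was -0.49 ± 0.08 over all arrays (adjusted p = 0.00195), -0.51 within day 1 and -0.46 within day 2. The other cytosolic genes that fell were GRS1, CDC60 (leucine; -0.41 ± 0.09), MES1, TYS1 (tyrosine; -0.35 ± 0.06), GUS1, THS1 (threonine; -0.30 ± 0.07), SES1 (serine; -0.28 ± 0.06) and HTS1. CDC60 had the widest spread of these, with 16421, 18156 and 15720 on the glycolaldehyde arrays, against 23848, 23692 and 19596 on the untreated ones, of which replicate 3 was the lowest.

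**Figure D2:**
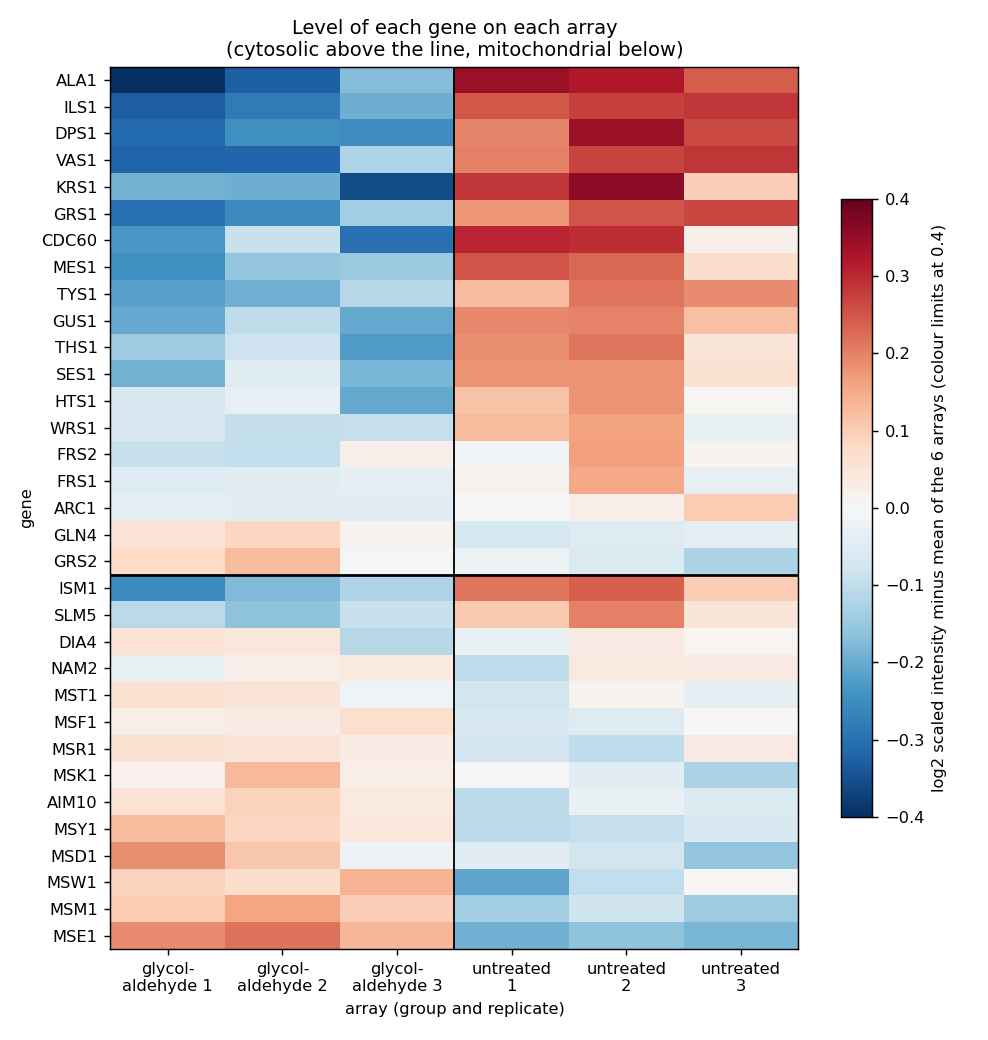
Log2 scaled intensity of each member on each array, after subtracting the gene's mean over the 6 arrays (colour, log2 units, limits at 0.4 on either side), with glycolaldehyde arrays left of untreated ones, cytosolic members above the line and mitochondrial members below it. The upper left block is mainly blue and the upper right red; below the line only ISM1 and SLM5 show that pattern clearly, and MSE1, at the bottom, shows the opposite one.

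ALA1, VAS1, GRS1 and HTS1 of the cytosolic list serve both compartments, and all 4 fell, where 23.5% of all tested genes fell. GRS1, the main glycyl-tRNA synthetase, had 85086, 87804 and 95116 with glycolaldehyde, against 118228, 124743 and 125973 without, and fell by 0.46 ± 0.06 (adjusted p = 0.000699). HTS1, the only histidyl-tRNA synthetase gene, had 58069, 59288 and 52649 with glycolaldehyde, against 65587, 68702 and 61020 without. The groups of HTS1 did not overlap, but the nearest arrays, 59288 with glycolaldehyde and 61020 without, were close. Its change of -0.20 ± 0.07 was the smallest among the cytosolic genes that fell (adjusted p = 0.0448), and it did not pass when any array other than untreated replicate 3 was left out (adjusted p between 0.0607 and 0.149). Nor did HTS1 pass with quantile normalization (adjusted p = 0.142), normexp background correction (0.0922) or no filter on dim probes (0.0538).

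GRS2 is a second glycyl-tRNA synthetase gene, a paralog of GRS1 that is known to be induced under stress. It had 4550, 4698 and 4281 with glycolaldehyde, against 4244, 4135 and 3943 without. All glycolaldehyde arrays were above all untreated ones, by little, and the change of 0.13 ± 0.06 did not pass (adjusted p = 0.0938). With the replicate number as a block it passed (adjusted p = 0.0386), but not when the close replicates 1 and 2 of each group were averaged first and scan day was the block (0.139). The averaged fit keeps few values per gene, so its p-values rest largely on the spread that limma shares over genes. It is not stricter over all genes: it called 1886 higher and 1559 lower, against 1761 and 1397 in the reported fit. The 95% intervals of the pair did not overlap, at -0.61 to -0.32 for GRS1 and -0.005 to 0.27 for GRS2. Probe sequences were not used here, so signal that the probe of one paralog takes from the other was not separated.

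The genes of both subunits of phenylalanyl-tRNA synthetase did not pass. FRS2, the alpha subunit, had 29959, 29733 and 32380 with glycolaldehyde, against 31602, 35688 and 32059 without, and these groups overlapped. FRS1, the beta subunit, had 22782, 22948 and 23034 with glycolaldehyde, against 23826, 26225 and 23072 without, where the highest glycolaldehyde array nearly met the lowest untreated one. The changes of -0.11 ± 0.07 and -0.09 ± 0.06 did not pass (adjusted p = 0.217 for FRS2 and 0.278 for FRS1), and on scan day 2 alone the change was 0.014 for FRS2 and -0.002 for FRS1.

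Arc1 binds the methionyl and glutamyl enzymes, Mes1 and Gus1, in a cytosolic complex and helps them to bind tRNA. Both enzymes fell, MES1 by 0.37 ± 0.07 and GUS1 by 0.34 ± 0.06 (adjusted p = 0.00267 and 0.00187). MES1 had 18606, 19769 and 19897 with glycolaldehyde, against 26246, 25856 and 23177 without; GUS1 had 39520, 42396 and 39480 with glycolaldehyde, against 51977, 52136 and 49387 without. ARC1 itself had 67412, 67192 and 67177 with glycolaldehyde, against 69086, 70220 and 74264 without, a difference of -0.08 ± 0.05 that did not pass (adjusted p = 0.232). The 95% interval of ARC1, -0.20 to 0.04, lay just above those of GUS1 (-0.47 to -0.21) and MES1 (-0.52 to -0.21). The sign for ARC1 depends on scaling: with quantile normalization its change was 0.0015.

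The remaining cytosolic enzymes did not pass. WRS1, for tryptophan, had 14534, 14244 and 14268 with glycolaldehyde, against 16622, 17023 and 14901 without, and its change of -0.17 ± 0.06 was at the threshold (adjusted p = 0.0553). It passed with the replicate block (adjusted p = 0.0265) and in the 4 arrays on which both records agree (0.0241), but not when replicates 1 and 2 were averaged first, blocked by scan day (0.105). GLN4, glutaminyl-tRNA synthetase, had 42416, 43386 and 41274 with glycolaldehyde, against 38912, 39424 and 39782 without. GLN4 was thus slightly higher on every glycolaldehyde array, with a change of 0.11 ± 0.05 (adjusted p = 0.115), while most other cytosolic enzymes were lower.

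Synthetases fall into structural classes I and II, which differ in the fold of the catalytic domain. In the cytosol 6 of 8 class I genes and 7 of 10 class II genes fell, with medians of -0.36 and -0.29, where 23.5% of all tested genes fell. In mitochondria 4 of 7 class I genes rose and 1 fell, and 0 of 7 class II genes rose and 1 fell, with medians of 0.17 and 0.08. Of all tested genes 29.6% rose and 23.5% fell, and of the 14 mitochondrial members together 28.6% rose. The mitochondrial counts rest in part on genes near the threshold: without any 1 of the day 1 arrays the class I genes that rose were MSE1 and MSM1, and with the replicate block the class II genes MSD1 and AIM10 rose as well. No test of the difference between classes was made.

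Yeast has 4 further cytosolic charging enzymes outside the list, and all 4 fell. YDR341C (arginine) fell by 0.63 ± 0.06, DED81 (asparagine) by 0.55 ± 0.06, YHR020W (proline) by 0.42 ± 0.06 and YNL247W (cysteine) by 0.37 ± 0.07, with adjusted p between 0.000137 and 0.00277. YDR341C had 29745, 30227 and 32637 with glycolaldehyde, against 49579, 47759 and 46258 without. In each of these 4 every glycolaldehyde array lay below every untreated array. Over all tested genes 27.1% did so, and 23.5% fell.

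Among the mitochondrial enzymes, MSE1, glutamyl-tRNA synthetase, had the largest rise. It had 2768, 2819 and 2660 with glycolaldehyde, against 2123, 2173 and 2139 without. The arrays of each group lay close together and far from the other group, and MSE1 rose by 0.36 ± 0.05 (adjusted p = 0.000936), or by 28.1%. MSM1, for methionine, had 1549, 1608 and 1547 with glycolaldehyde, against 1313, 1365 and 1308 without. Its rise of 0.24 ± 0.05 (adjusted p = 0.00579) was the same on both scan days (0.24 each). MSW1, for tryptophan, had 6102, 6014 and 6300 with glycolaldehyde, against 4950, 5350 and 5745 without, and rose by 0.20 ± 0.07 (adjusted p = 0.0362). The fourth rise was that of MSY1, for tyrosine, by 0.17 ± 0.05 (adjusted p = 0.0244; 1195, 1162 and 1128 with glycolaldehyde, against 1018, 1027 and 1048 without).

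MSW1 and MSY1 were near the threshold. MSW1 did not pass when any array other than untreated replicate 3 was left out (adjusted p between 0.0760 and 0.133). MSY1 did not pass without any 1 of the day 1 arrays (adjusted p between 0.0754 and 0.102) nor in the 4 arrays on which both records agree (0.0803). With the replicate block MSD1 (aspartate; 0.18 ± 0.07) and AIM10 (proline; 0.13 ± 0.05) also passed, at adjusted p of 0.0112 and 0.0471, against 0.0551 and 0.0745 without the block, so that 6 mitochondrial genes rose. In the fit that averages replicates 1 and 2 and blocks by scan day 4 rose: MSD1 passed (adjusted p = 0.0487), while AIM10 (0.187) and MSY1 (0.0790) did not.

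The mitochondrial enzymes that fell charge isoleucine and asparagine. ISM1, the isoleucyl enzyme, had 730, 772 and 800 with glycolaldehyde, against 1012, 1029 and 936 without, and fell by 0.37 ± 0.06 (adjusted p = 0.00199). Its change was -0.44 within scan day 1 and -0.23 within scan day 2. SLM5, the asparaginyl enzyme, had 1386, 1337 and 1405 with glycolaldehyde, against 1608, 1718 and 1546 without, and fell by 0.24 ± 0.06 (adjusted p = 0.0115; 0.0517 without glycolaldehyde replicate 2). For both amino acids the cytosolic enzyme fell as well, ILS1 for isoleucine and DED81 for asparagine.

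The other mitochondrial enzymes did not pass. NAM2, the leucyl enzyme, which also takes part in splicing of mitochondrial introns, had a change of 0.02 ± 0.06 and overlapping groups, between 1857 and 1947 with glycolaldehyde, against 1767 to 1947 without. DIA4 (serine) had one of -0.01 ± 0.06, and MST1 (threonine), MSF1 (phenylalanine), MSR1 (arginine) and MSK1 (lysine; its product also helps to import a cytosolic lysine tRNA) had changes between 0.06 and 0.11. The signs for NAM2 and DIA4 turned under some settings, NAM2 with median centring (-0.0091) and DIA4 with normexp background correction (0.00013).

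**Figure D3:**
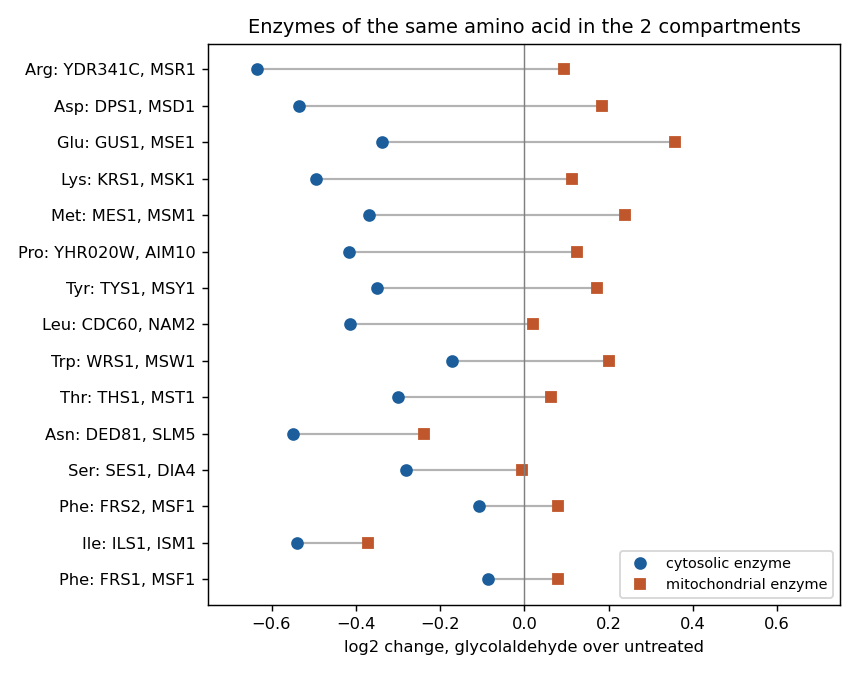
Log2 change, glycolaldehyde over untreated, of the cytosolic enzyme (circle) and the mitochondrial enzyme (square) for each of 15 pairs that charge the same amino acid, ordered by the difference. The circle lies left of the square in every pair, and the distance ranges between 0.17 and 0.73.

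Cytosolic and mitochondrial enzymes of the same amino acid were compared in 15 pairs covering 14 amino acids, 3 of which take the cytosolic gene from outside the list. The difference between the log2 changes, cytosolic minus mitochondrial, was below 0 in 15 of 15 pairs, and its 95% interval excluded 0 in 13. These intervals are from an ordinary t distribution with the pooled variance of the per-array differences, not from limma. They have no term for scan day and are not adjusted over the pairs. All pairs use the same 6 arrays and both phenylalanine pairs share MSF1, so the pairs are not independent. No share for pairs of other genes was computed. The largest difference was that of arginine (YDR341C minus MSR1), -0.73 with an interval of -0.96 to -0.50, followed by aspartate (DPS1 minus MSD1), -0.72 (-0.99 to -0.45), and glutamate (GUS1 minus MSE1), -0.70 (-0.79 to -0.60). For lysine it was -0.61 (-0.81 to -0.40), for methionine -0.61 (-0.77 to -0.45) and for tyrosine -0.52 (-0.69 to -0.36). The interval included 0 for both phenylalanine pairs, -0.17 (-0.36 to 0.03) for FRS1 and -0.19 (-0.38 to 0.003) for FRS2, each against MSF1. For isoleucine, where both enzymes fell, the difference was -0.17 (-0.31 to -0.03). With 3 arrays against 3 the exact permutation test cannot go below a two-sided p of 0.1, which every pair reached (adjusted over the 15 pairs, p = 0.1), so none can pass the threshold by that test.

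Averaged over each class, the mean log2 level relative to the array's 75th percentile was 1.69, 1.73 and 1.71 for cytosolic members on the glycolaldehyde arrays, against 2.01, 2.05 and 1.95 on the untreated ones. For mitochondrial members it was -2.11, -2.10 and -2.13 with glycolaldehyde, against -2.21, -2.16 and -2.19 without. The arrays of the groups did not overlap in either class. The difference between the class means on the same array, cytosolic minus mitochondrial, does not depend on how arrays are centred. It was 3.80, 3.83 and 3.84 with glycolaldehyde, against 4.22, 4.22 and 4.14 without, with a replicate SD of 0.0351. These class means are a description and were not tested.

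Of 7 other genes of tRNA charging 3 rose, 1 fell and 3 did not pass, where 29.6% of all tested genes rose and 23.5% fell. GCN2, the kinase that senses uncharged tRNA, rose by 0.33 ± 0.07 (adjusted p = 0.00419), with 3469, 3502 and 3834 on glycolaldehyde arrays, against 2902, 2993 and 2713 on untreated ones. CCA1, which adds the CCA end that synthetases charge, rose by 0.28 ± 0.06, and DTD1, which removes wrongly attached D-amino acids, rose by 0.34 ± 0.06. The gene that fell was FMT1, which formylates the mitochondrial initiator methionyl-tRNA. It had 83, 93 and 101 with glycolaldehyde, against 163, 189 and 166 without, and fell by 0.90 ± 0.09 (adjusted p = 0.000187). The probe of FMT1 was among the 595 dimmest of the tested genes (scaled intensity 24.6 to 355), though well above background on all 6 arrays. How far the size of its fall depends on background correction or normalization was not tested. Yeast mitochondria make their glutaminyl-tRNA by amidating glutamyl-tRNA, and the genes of that amidotransferase, PET112, HER2 and GTF1, did not pass, with changes of -0.03, 0.06 and 0.25 (adjusted p = 0.602, 0.496 and 0.0648); GTF1 passed with the replicate block (adjusted p = 0.0183).

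Genes that act beside the mitochondrial enzymes in organellar translation moved both ways, as did all tested genes (29.6% rose and 23.5% fell). Of 6 translation factors 3 rose and 2 fell, with MEF2 (a second elongation factor G homolog that acts in ribosome recycling) at 0.39 ± 0.08, the recycling factor RRF1 at 0.31 ± 0.07, the release factor MRF1 at 0.25 ± 0.08, elongation factor Tu, TUF1, at -0.25 ± 0.07 and elongation factor G, MEF1, at -0.19 ± 0.06. In the 4 arrays on which both records agree MRF1 and MEF1 did not pass (adjusted p = 0.131 and 0.0886), which leaves 2 rises and 1 fall. Of 3 genes that modify mitochondrial tRNAs MSS1 and SLM3 rose by 0.30 ± 0.05 and 0.32 ± 0.07, while MTO1, the partner of MSS1 in the same modification, fell by 0.50 ± 0.08.

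**Figure D4:**
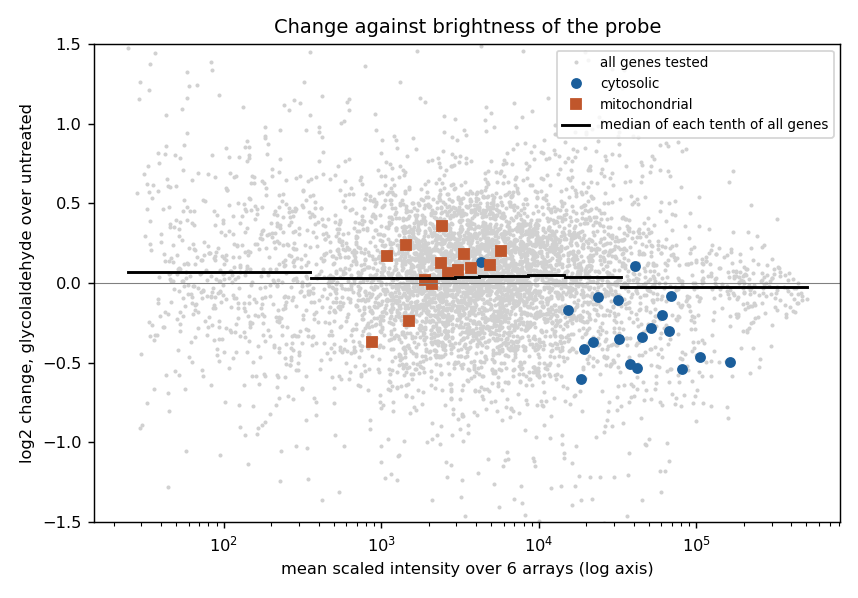
Log2 change, glycolaldehyde over untreated, against mean scaled intensity over the 6 arrays (log axis) for all tested genes (grey), cytosolic members (circles) and mitochondrial members (squares); black bars are the medians of 10 equal bins of all genes by brightness. The axis stops at 1.5 on either side and leaves out 65 genes. All cytosolic members but GRS2 lie in the brightest part of the range, and most lie below the bars, which stay between -0.03 and 0.07.

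The classes differ in the brightness of their probes. Of the 19 cytosolic members 18 were in the brightest of 4 equal bins of all tested genes, and of the 14 mitochondrial members 4 were in the dimmest bin, 8 in the next, 2 in the one after and 0 in the brightest. Over all genes of the brightest of 4 bins the median log2 change was 0.01, and 26.4% fell and 27.5% rose; in the brightest of 10 bins, which held 11 cytosolic members, the median was -0.03, and 29.4% fell and 19.0% rose. The cytosolic median of -0.34 became -0.30 with quantile normalization, which gives all arrays the same distribution of intensities. Single members moved both ways. Among bright ones ILS1 went from -0.54 to -0.42, GRS1 from -0.46 to -0.34 and HTS1 from -0.20 to -0.12, where HTS1 no longer passed (limma adjusted p = 0.142). The dimmer ALA1 went from -0.60 to -0.63 and CDC60 from -0.41 to -0.45. What part of the difference between the classes goes with brightness was not tested further.

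**Figure D5:**
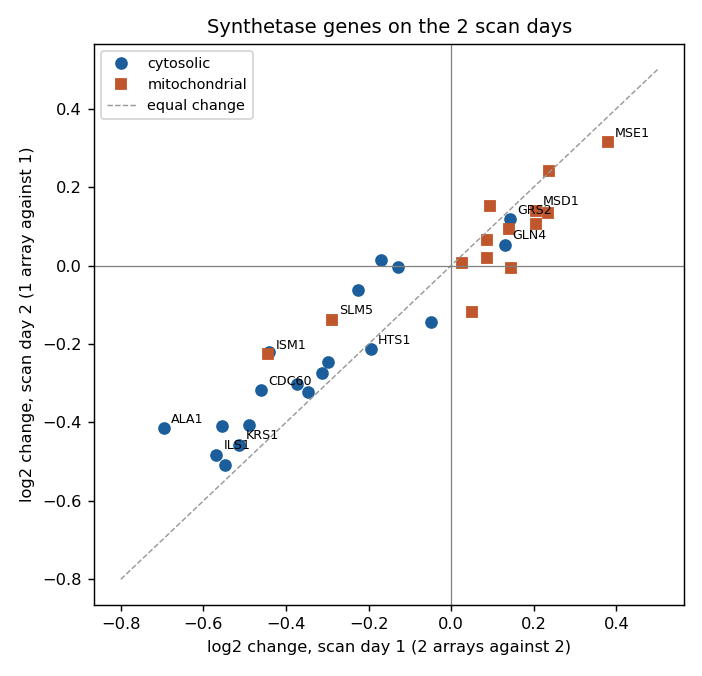
Log2 change of each member, glycolaldehyde over untreated, within scan day 1 (horizontal axis, 2 arrays against 2) and within scan day 2 (vertical axis, 1 array against 1), with cytosolic members as circles, mitochondrial ones as squares and equal change as a dashed line. Of the 33 points 30 have the same sign on both days, and the negative changes are mostly smaller on day 2.

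Both scan days showed the same direction for most members. The cytosolic median was -0.35 within day 1 and -0.27 within day 2, and the mitochondrial median 0.12 and 0.08; for all tested genes these medians were 0.04 and 0.01. The signs agreed between days for 18 of 19 cytosolic members and 12 of 14 mitochondrial ones. The exceptions were FRS2, DIA4 and MSR1, none of which passed over all arrays. In day 1 alone, fitted by itself, 15 cytosolic members fell and 2 rose, and 7 mitochondrial members rose and 2 fell, where 30.1% of all tested genes fell and 39.9% rose. These calls rest on the spread within 1 day only, which was smaller (SD of log2 differences 0.0979 and 0.105) than across days (0.181 to 0.21). The larger counts are therefore not stronger evidence than the fit over all arrays. Day 2 has a single array per group and therefore no test.

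The grouping of the arrays decides the calls. In the 4 arrays on which both records agree, 14 cytosolic members fell and 0 rose, and 3 mitochondrial members rose and 2 fell. Of the genes tested there 22.1% fell and 26.2% rose, and the medians were -0.35 and 0.10. That fit had no term for scan day, and its only day 2 array was a glycolaldehyde array, so it does not separate treatment from scan day fully. When all arrays were grouped as the scanner files are attached, limma called 0 members and 0 of 5924 tested genes (0.0% in either direction, smallest adjusted p = 0.919). By limma 134 genes had an unadjusted p under 0.05, where independent genes with evenly spread p-values would give 296. Genes are not independent, so that comparison does not tell which record is right. The medians were then -0.12 for cytosolic and 0.05 for mitochondrial members. The free-text descriptions would instead turn the sign of every change: 13 cytosolic members would then be higher and 0 lower with glycolaldehyde, and 2 mitochondrial members higher and 4 lower. Which of these records is right was not settled by these files.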

How the data were processed

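Total RNA of 6 yeast samples was labelled with Cy3 and hybridised to single-colour Agilent arrays with 7 spots per probe. Per the file headers, the authors extracted spot intensity with Agilent Feature Extraction 11.0.1.1; the deposited value table holds an intensity on a linear scale, which equals the mean processed signal of a probe's spots on 1 array (relative tolerance 1e-06 at all 6256 probes), with no normalization between arrays. The submitters' processing notes also list R 3.0.2, giving no use for it. Columns of the table carry the sample's identifier (0 without a sample). Per the file headers, the scanner files also gave flags for outliers, saturation and spots well above background, and median and background intensity.

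The log2 value minus the array's 75th percentile was fitted in R 4.3.3 by limma 3.58.1 (lmFit, then eBayes), treatment being the only term, two-sided, with Benjamini-Hochberg adjustment over 5944 genes. A gene was tested when over 0.5 of its probe's spots were well above background on all 3 arrays of at least 1 group; the brightest probe was kept for 29 genes with several. The fit was also run on simulated data. No outcome of that run is given, so nothing is concluded from it about replicates closer within a scan day than across days. Probes were named by open reading frame through RefSeq's gene table (assembly R64); the headers name another build, so no coordinates are given. Sequences of probes, promoters and proteins were not used here. The members, lists and tests were chosen with earlier results of these data known. Named genes are all members, fixed lists of other charging and mitochondrial translation genes, and, with full values, the 5 largest changes per class and the genes of shared, paralogous or complexed enzymes.

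The groups share replicate numbers. Deviations from the group means over 5944 genes correlated with 0.321, 0.401 and 0.621 between same-numbered arrays. All were over 0.1, which is the bar for taking equal numbers as pairs. However, replicate 3 of both groups shares a slide and a scan day, so these correlations cannot tell pairing by number from scan day. The reported fit has no block, and the fit with the replicate number as a block is given where it changes a call. The normexp alternative used the median signal, since the files hold no mean signal.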

Additional observations from a re-analysis of the deposited data

How the results depend on the processing

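Of 21 alternatives, those in which limma could be run with the value table's grouping left 12 to 15 cytosolic members that fell, against 13. Grouping by the scanner files gave 0 cytosolic falls, 0 mitochondrial rises and 0 falls, and 0 genes higher and 0 lower over all genes; the medians were -0.12 (cytosolic), 0.048 (mitochondrial) and -0.17 (their difference, against -0.44). Cytosolic rises numbered 0 as reported, 1 with normexp, quantile normalization, the replicate block, and slide as a fixed or random block, and 2 with scan day 1 alone or scan day as a block; these were GRS2 and GLN4. Mitochondrial rises numbered 7 in scan day 1 alone. With quantile normalization the medians were -0.30, 0.073 and -0.37 for the difference, in scan day 2 alone -0.27, 0.080 and -0.35, and with median centring the mitochondrial one was 0.076. Leaving out each array in turn gave 12 to 14 cytosolic falls and 0 to 1 rises, 2 to 4 mitochondrial rises and 1 to 2 falls, and over all genes 1363 to 1883 rises and 1121 to 1495 falls. The replicate block called 2174 genes higher and 1730 lower, and beside the genes named in the report it changed no other call among members.

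Members whose sign turned had small changes and did not pass. DIA4 was at 0.00013 with normexp, 0.00019 with spot-level signals, 0.050 in scan day 1 alone and between -0.035 and 0.048 with 1 array left out (above 0 without glycolaldehyde replicate 3 or untreated replicate 2). NAM2 was at -0.0091 with median centring, -0.022 with slide as a block and between -0.026 (without untreated replicate 1) and 0.044 with 1 array left out. ARC1 was at 0.0015 with quantile normalization and 0.012 under the scanner-file grouping, where GRS2 was at -0.0034, MSD1 at -0.046 and MST1 at -0.0017. In scan day 2 alone FRS2 was at 0.014 and MSR1 at -0.0054. The cause was not tested. The number of arrays and the closeness of replicates 1 and 2 limit the precision; all members were well above background.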
